A study of Mus musculus with 40 samples.

Results

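Fibroblasts of the mammary gland lay down and remodel the collagen-rich matrix around the ducts. They carry receptors for steroid hormones and send growth factors to the epithelium, and ovarian hormone levels vary over the estrous cycle. The comparison described here set the fibroblasts of estrus against those of proestrus, metestrus and diestrus. It used the 8 adult libraries of the non-adipose stromal population: 2 of estrus and 6 of the other stages (2 each), out of 40 libraries in the whole series. Genes were compared as counted and again after a correction for the GC content of each gene's exons.

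All groups came from virgin FVB/N females aged 14 to 16 weeks with no treatment, and they were grouped by the stage read from vaginal cytology. Each library is RNA of a pool of 2 to 3 mice. The cells were sorted from digested glands by the absence of EpCAM and CD49f, after cells with the blood and endothelial surface proteins CD45, CD31 and Ter119 had been gated out. The population is thus defined by what it lacks, and it can hold any cell without those proteins. A difference in the number of cells of one type and a difference in RNA per cell cannot be told apart in such bulk samples.

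The fibroblast label was checked on 7 markers, in RPKM (counts per kilobase of exon, scaled to library size). *Col1a1*, a chain of type I collagen, had 952 and 1034 in estrus, against 332 to 1211 in the other stages. *Dcn*, which encodes the proteoglycan decorin, had 856 and 1202 in estrus, against 1027 to 2314 in the other stages. *Pdgfra*, the receptor used to mark fibroblasts, had 43.6 and 69.6 in estrus, against 41.3 to 106 in the other stages. The markers *Col1a2*, *Col3a1*, *Lum* and *Dpt* were also present in every library, and the 2 groups overlapped for each of the 7. Library totals were 8991222 and 17545027 counts in estrus, against 10584694 to 19082163 in the other stages, so estrus 1 was the shallowest library. The genes *Lars2* and *Gm42418*, named after their values were seen, took together 22.9% and 0.912% of all counts in estrus, against 1.82% and 1.17% in proestrus, 17.1% and 1.41% in metestrus and 13.7% and 11.3% in diestrus. Their share was thus high in estrus 1 and in 3 libraries of the other stages. Without these genes edgeR still called 0 genes with and without the GC correction (1487 and 2798 at an unadjusted p under 0.05), and their part in other results was not tested.

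The 2 estrus libraries stood apart from the other 6 in how the level of a gene followed its GC content. Across genes, GC content and each gene's departure from its average level in these libraries had a Spearman correlation of 0.593 and 0.522 in estrus. The correlation lay between -0.349 and -0.0622 in the other stages. In the tenth of genes lowest in GC (median 39.9%), the median deviation in log2 CPM (counts scaled to library size) was -0.92 and -0.34 in estrus, against 0.02 to 0.34 in the other stages. In the tenth highest in GC (median 59.1%) it was 0.30 and 0.15 in estrus, against -0.18 to 0.05 in the other stages. The slope was thus in the same direction in both estrus libraries and steeper in estrus 1. In the other cell populations the same correlation in estrus was 0.118 and 0.0866 for luminal cells, 0.0922 and 0.407 for basal cells, and -0.0764 and 0.125 for adipocytes. Outside estrus it ran from -0.27 to 0.235 for luminal cells and from -0.0788 to 0.0684 for adipocytes. In basal cells it ran from -0.342 to 0.555, and proestrus 2 held the highest value, so that a positive trend was not limited to estrus libraries. Whether this trend is part of the biology of the stage or of the preparation of the libraries was not tested.

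**Figure D1:**
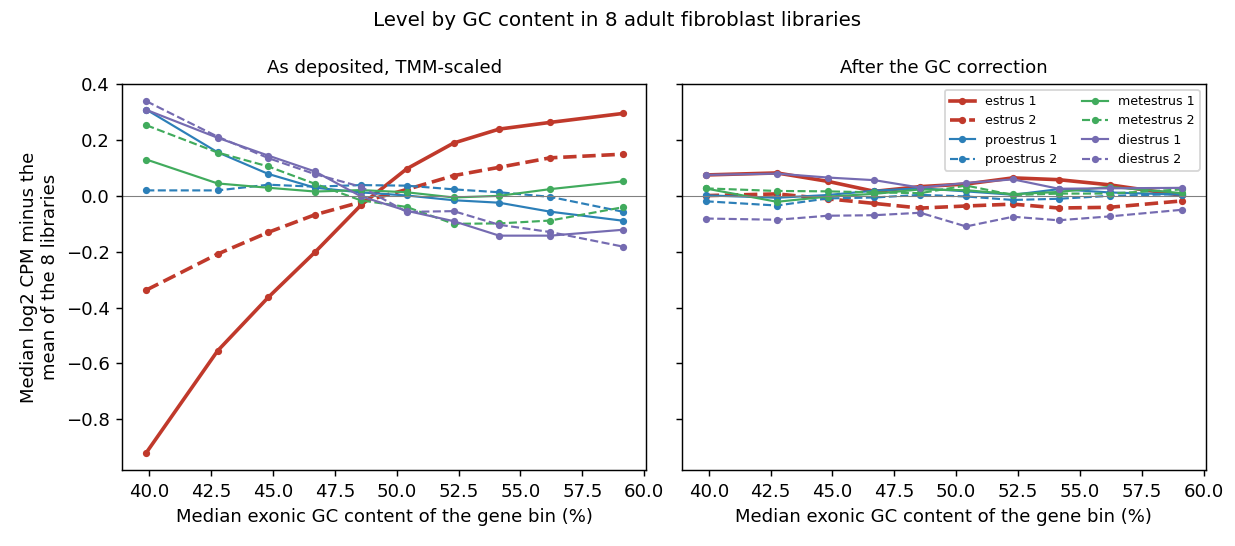
Median deviation of log2 CPM from the mean of the 8 libraries (y axis) in 10 bins of genes by exonic GC content (x axis, %), before correction on the left and after it on the right, with 1 line per library. Before correction the estrus lines run from -0.92 and -0.34 in the lowest bin to 0.30 and 0.15 in the highest, across the lines of the other stages, and after correction all 8 lines are nearly flat.

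To show the composition behind this trend, a stretch of 120 coding bases is given for 4 genes: of the 6 leading genes in each direction of the uncorrected comparison, the 2 lower in estrus with the lowest GC content and the 2 higher in estrus with the highest. Each stretch is the one within 1 coding exon whose GC content is nearest that of the whole gene, so it illustrates the gene and is no regulatory site. Bases are read 5′ to 3′ on the coding strand from GENCODE M21 (GRCm38), and capitals mark G and C.
*Chm* (chrX:113110250-113110369, minus strand): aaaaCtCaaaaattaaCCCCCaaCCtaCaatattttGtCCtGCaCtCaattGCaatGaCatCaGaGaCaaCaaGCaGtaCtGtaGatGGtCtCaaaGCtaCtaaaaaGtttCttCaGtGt
*Rif1* (chr2:52076981-52077100, plus strand): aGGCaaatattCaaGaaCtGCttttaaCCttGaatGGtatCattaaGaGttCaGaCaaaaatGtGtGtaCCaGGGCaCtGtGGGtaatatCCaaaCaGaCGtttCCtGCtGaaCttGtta
*Nos3* (chr5:24367204-24367323, plus strand): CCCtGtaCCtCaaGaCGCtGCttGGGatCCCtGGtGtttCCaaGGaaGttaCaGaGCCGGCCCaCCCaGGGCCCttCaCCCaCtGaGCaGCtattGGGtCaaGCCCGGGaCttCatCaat
*Rusc1* (chr3:89084485-89084604, minus strand): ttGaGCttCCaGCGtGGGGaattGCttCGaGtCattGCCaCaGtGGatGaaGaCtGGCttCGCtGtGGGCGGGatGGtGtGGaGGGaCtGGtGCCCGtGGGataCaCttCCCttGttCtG
The stretches of *Chm* and *Rif1* hold 44 and 46 G or C bases, and those of *Nos3* and *Rusc1* hold 70 and 69. Over all exons the GC content was 36.9% for *Chm*, 38.5% for *Rif1*, 58.2% for *Nos3* and 57.3% for *Rusc1*, beside a median of 49.5% for all tested genes.

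Without a correction, no gene of 13068 was called in estrus against the other stages by edgeR's quasi-likelihood test (smallest Benjamini-Hochberg adjusted p = 0.0795, threshold 0.05). An unadjusted p under 0.05 was reached by 733 genes higher and 1982 genes lower in estrus (5.61% and 15.2% of those tested). With the GC correction no gene of 13016 was called either (smallest adjusted p = 0.194), and 814 genes higher and 668 lower had an unadjusted p under 0.05 (6.25% and 5.13%). The excess of lower over higher genes was thus present only in the uncorrected comparison at that threshold. The genes lower in estrus before correction had a median GC content of 42.2% and a median exonic length of 7220 bases. Those higher had 55.1% and 4163 bases, and all tested genes had 49.5% and 4519 bases. After correction the genes higher at that threshold had 43.9% and 4594 bases, and those lower had 44% and 7704 bases. Both corrected sets were thus low in GC. Across genes, the Spearman correlation of the log2 fold change with GC content was 0.671 before the correction and -0.0365 after it, which the correction sets by its construction.

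Other tests made calls, and these were fewer after the correction. DESeq2 called 209 genes higher and 1001 lower in estrus without it (1.6% and 7.66% of those tested) and 97 higher and 182 lower with it (0.745% and 1.4%). A joint edgeR fit of all 32 adult libraries, in which the 4 cell types share 1 estimate of the spread, called 568 higher and 1219 lower without the correction (3.77% and 8.09% of 15077 genes). With it the joint fit called 149 higher and 257 lower (0.993% and 1.71% of 15003 genes). Of its 1787 uncorrected calls 289 were shared with the 406 corrected ones, 16.2% of the first and 71.2% of the second, with 35 higher, 254 lower and 0 in opposite directions. Without a filter on low counts the separate edgeR fit called 258 higher and 1300 lower of 21707 genes uncorrected (1.19% and 5.99%), and 157 higher and 433 lower of 21481 corrected (0.731% and 2.02%). By both tools, with and without the correction, 162 genes were called, 9 higher and 153 lower. These 4 analyses use the same libraries and are no independent repeats. The counts depended on which estrus library was used. Without estrus 1 the joint fit called 0 genes on either scale (1743 uncorrected and 738 corrected at an unadjusted p under 0.05), the separate edgeR fit also 0 (1085 and 407), and DESeq2 180 uncorrected and 23 corrected. Without estrus 2 the joint fit called 2437 uncorrected and 996 corrected, the separate edgeR fit 911 and 75, and DESeq2 1669 and 631.

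**Figure D2:**
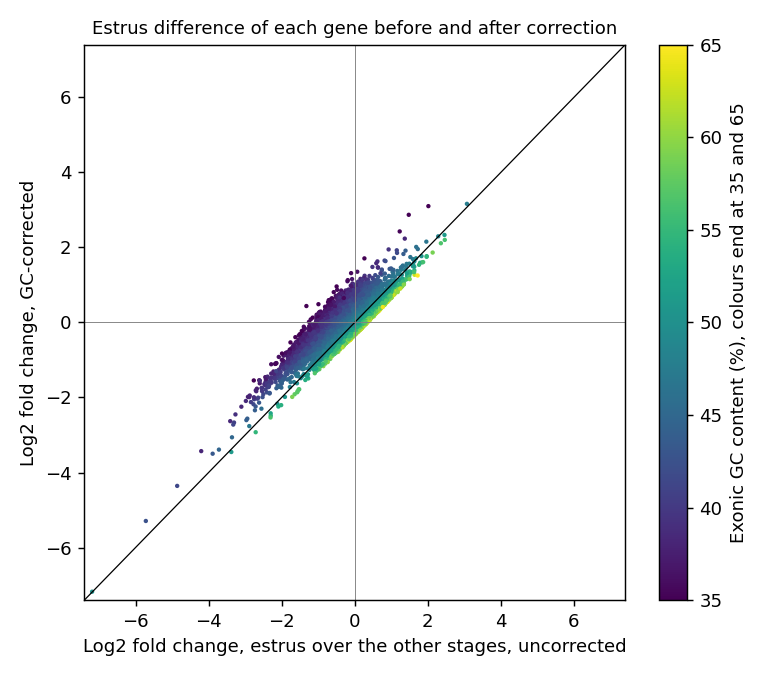
Log2 fold change of each gene, estrus over the other stages, before the GC correction (x axis) and after it (y axis), 1 point per gene, coloured by exonic GC content. Genes low in GC (dark) lie above the diagonal and genes high in GC (light) below it, and the SD of the fold changes is 0.573 before and 0.445 after correction.

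*Vps13a* (chromosome 19, 16615366 to 16780933), whose protein moves lipids between membranes, had 1.98 and 4.29 CPM in estrus, against 30.2 and 13.4 in proestrus, 28.1 or more in both metestrus libraries and 19.4 and 26.8 in diestrus. Both estrus libraries lay below all 6 others, and within the other stages proestrus 2 was lowest. After the GC correction *Vps13a* had 4.27 and 5.60 CPM in estrus, against 13.1 to 25.9 in the other stages. Its log2 fold change was -2.89 ± 0.43 (SE) before and -1.99 ± 0.29 after correction, with edgeR adjusted p = 0.0795 and 0.194 in the separate fits and 0.00179 and 0.00787 in the joint fits.

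*Akap9* encodes a scaffold of the Golgi and the centrosome. It had 1.85 and 5.04 CPM in estrus, against 12.6 to 39.3 in the other stages, and after correction 2.64 and 5.68 in estrus, against 12.2 to 36.4. Its log2 fold change was -2.73 ± 0.41 before and -2.34 ± 0.35 after correction. *Pcm1*, a component of centriolar satellites, had 3.16 and 6.86 CPM in estrus, against 19.97 to 46.4 in the other stages. The log2 fold change was -2.75 ± 0.43 before and -2.05 ± 0.31 after correction. *Rif1*, which acts at telomeres and in the timing of DNA replication, had 2.51 and 6.51 CPM in estrus, against 17.7 to 39.9 in the other stages. On the log2 scale it stood at -2.71 before and -1.81 after correction. None of these groups overlapped on either scale. Over all tested genes, both estrus libraries lay above all 6 others for 6.28% and below them for 14.2% before the correction, and for 5% and 5.45% after it.

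*Atrx*, a chromatin remodeller, had 3.69 and 14.6 CPM in estrus, against 41.1 to 105 in the other stages, and after correction 8.66 and 19.6 in estrus, against 40.4 to 76.4. *Nipbl*, the loader of cohesin, had 6.20 and 15.9 CPM in estrus, against 33.8 to 89.0 in the other stages. *Tpr*, a protein of the nuclear pore basket, had 5.41 and 12.6 CPM in estrus, against 30.2 to 84.8 in the other stages. For these 3 genes the log2 fold changes were -2.92, -2.52 and -2.71 before correction and -1.98, -1.99 and -2.24 after it. In all of them estrus 1 was lower than estrus 2, and both were under every other library.

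*Dmxl1*, linked to the proton pump of acidic vesicles, had a log2 fold change of -2.18 before and -1.11 after correction. *Chm*, which escorts Rab proteins to the enzyme that lipidates them, had 3.43 and 6.15 CPM in estrus, against 13.2 to 17.5 in the other stages, and after correction 8.52 and 8.39 in estrus, against 11.9 to 14.2. It stood at -1.66 before and -0.59 after correction, and its joint edgeR adjusted p was 0.00262 before and 0.0502 after. *Nol8*, a nucleolar protein, stood at -2.22 and -1.46.

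Length and composition beyond GC content also moved with these genes. The 153 genes called lower by both tools on both scales had a median GC content of 42.3%, a median exonic length of 10340 bases and a median coding length of 5010.5 bases, against 49.5%, 4519 and 1461 bases for all tested genes. After the GC correction the log2 fold change still correlated with coding length across genes (Spearman -0.295, 12605 genes). In single libraries the correlation of level with coding length after correction was -0.39 in estrus 1 and 0.0401 in estrus 2, against -0.208 to 0.285 in the other stages. A wider correction for GC content, A content and coding length, chosen after seeing the data, called 0 of 12679 genes in the separate edgeR fit (1244 at an unadjusted p under 0.05). In the joint fit it called 55 higher and 145 lower, including 102 of the 152 lower and 5 of the 8 higher genes among these that have a coding sequence. The median log2 fold change of the 153 was -1.71 uncorrected, -1.12 with the GC correction and -0.84 with the wider one (152 genes). *Akap9* then stood at -1.61, *Vps13a* at -1.58 and *Pcm1* at -1.24. The part of transcript length in these differences was not tested beyond this.

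**Figure D3:**
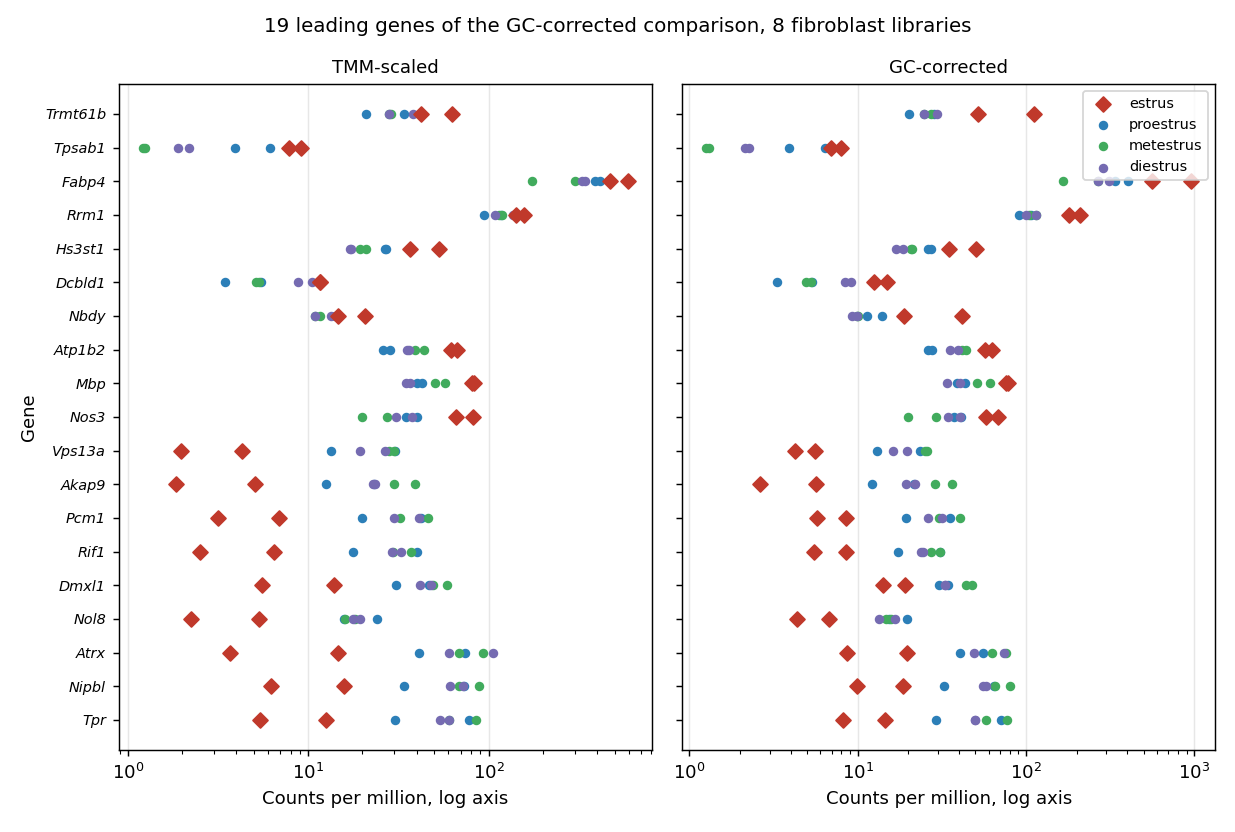
CPM on a log axis of 19 leading genes of the GC-corrected comparison in the 8 fibroblast libraries, TMM-scaled on the left and GC-corrected on the right, with 1 point per library and diamonds for estrus. The upper 10 genes are higher and the lower 9 lower in both estrus libraries than in all 6 others on both scales, and *Vps13a* has 1.98 and 4.29 CPM in estrus.

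The leading higher genes were of mixed function and changed order with the correction. *Hs3st1*, an enzyme that sulfates heparan sulfate chains of the matrix, had 53.1 and 36.9 CPM in estrus, against 26.8 and 26.9 in proestrus, 20.8 and 19.3 in metestrus and 17.01 and 17.4 in diestrus. The proestrus libraries were nearest to estrus. Its log2 fold change was 1.096 ± 0.17 before and 0.99 ± 0.17 after correction, with joint edgeR adjusted p = 0.00339 and 0.0334. *Rusc1*, which encodes an adaptor protein, had 73.3 and 61.3 CPM in estrus, against 30.8 to 37.1 in the other stages, and a log2 fold change of 0.98 before and 0.69 after correction. *Dcbld1*, a membrane protein, had 11.6 and 11.7 CPM in estrus, against 3.44 to 10.5 in the other stages, with diestrus nearest to estrus. It stood at 0.93 before and 1.24 after correction.

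The 9 genes called higher by both tools on both scales were *Hs3st1*, *Rusc1*, *Dcbld1*, *Trmt61b*, *Mcpt4*, *Bpnt1*, *Txndc11*, *Plekhb1* and *Asb5*, the last 4 named after their values were seen. *Trmt61b* had 62.4 and 42.3 CPM in estrus, against 21.02 to 38.0 in the other stages, and after correction 112 and 52.0 in estrus, against 20.3 to 29.5. Its log2 fold change was 0.82 before and 1.65 after correction. The counted entry (ENSMUSG00000085492) is annotated as an antisense gene, and the strand setting of the counting is not given in the sources used here, so its reads may include those of the opposite strand.

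Several higher genes gained their place through the correction. *Fabp4*, a lipid carrier of adipocytes and capillary endothelium, had 592 and 473 CPM in estrus, against 175 to 417 in the other stages, and after correction 959 and 561 in estrus, against 167 to 402. Estrus over the other stages was 0.74 on the log2 scale before and 1.41 after correction. *Nbdy*, which encodes a micropeptide of mRNA decapping, stood at 0.48 and 1.48, and its corrected level was 41.9 CPM in estrus 1 and 18.8 in estrus 2, against 9.26 to 13.9 in the other stages. *Rrm1*, a subunit of ribonucleotide reductase, stood at 0.38 and 0.88. For all 3 the corrected value of estrus 1 was the highest. The exonic GC content of *Fabp4*, *Nbdy* and *Rrm1* was 42.2%, 39.3% and 43.4%, under the median of 49.5% for all tested genes.

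Genes known from nerve, vessel and mast cells were also among the leading higher genes. *Mbp*, a myelin protein, had 81.2 and 82.7 CPM in estrus, against 34.7 to 57.4 in the other stages, and a log2 fold change of 0.93 before and 0.80 after correction. *Atp1b2*, a sodium pump subunit, stood at 0.92 and 0.77. *Nos3*, the endothelial nitric oxide synthase, had 82.4 and 65.8 CPM in estrus, against at most 40.1 in the other stages, and stood at 1.24 and 0.93. *Tpsab1*, a tryptase of mast cells, had 9.10 and 7.82 CPM in estrus, against 6.18 and 3.94 in proestrus and 1.21 to 2.20 in metestrus and diestrus, and stood at 1.85 and 1.60. Its reads may be shared with the near-identical *Tpsb2*. *Mcpt4*, a mast cell chymase, had 15.2 and 17.7 CPM in estrus, against 2.74 to 15.6 in the other stages, with proestrus 1 inside the estrus range. Its joint edgeR adjusted p was 0.00686 before and 0.0195 after correction.

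Marker lists of other cell types were summed, without the GC correction. Summed endothelial markers (24 of 24 above 1 CPM in at least 2 libraries) had 4903 and 4480 CPM in estrus, against 2213 to 4420 in the other stages. Pericyte and smooth muscle markers (21 of 21) had 4982 and 4285 CPM in estrus, against 3081 to 4111. Adipocyte markers (13 of 20) had 1022 and 1156 CPM in estrus, against 665 to 1005. In these 3 lists the groups did not overlap, though the nearest other library lay close. Schwann cell markers (13 of 13) had 560 and 615 CPM in estrus, against 325 to 610, leukocyte markers (23 of 29) 375 and 359, against 169 to 559, and luminal markers (18 of 20) 225 and 420, against 66.1 to 540, all with overlap. Basal markers (12 of 14) had 1892 and 1322 CPM in estrus, against 923 to 2467, also with overlap. For single members, the median log2 fold change was 0.59 before and 0.37 after correction for endothelial markers, 0.55 and 0.41 for pericyte and smooth muscle markers, 0.47 and 0.21 for adipocyte markers and 0.81 and 0.58 for Schwann cell markers. The same median was 0.67 and 0.73 for luminal, 0.76 and 0.58 for basal and 0.605 and 0.452 for leukocyte markers. A positive median was thus not limited to vessel, fat and nerve markers, while skeletal muscle markers stood at -0.65 and -0.88. Of the 13 Schwann cell markers, 7 lay above all other libraries in both estrus libraries before the correction and 6 after it. Over all tested genes, 6.28% lay above before the correction and 5% after it. Below all other libraries lay 1 of the 13 before the correction and 0 after it, beside 14.2% and 5.45% of all genes. At 0 counts in both estrus libraries were 2 adipocyte markers and 1 marker each of the basal, skeletal muscle and erythroid lists. No marker of the endothelial, pericyte, Schwann cell, leukocyte or luminal lists was at 0 in both. The erythroid marker was at 0 in all 8 libraries, and the others had counts outside estrus. Markers at 0 within another single stage were not counted. The part of these cells in the higher genes was not tested.

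**Figure D4:**
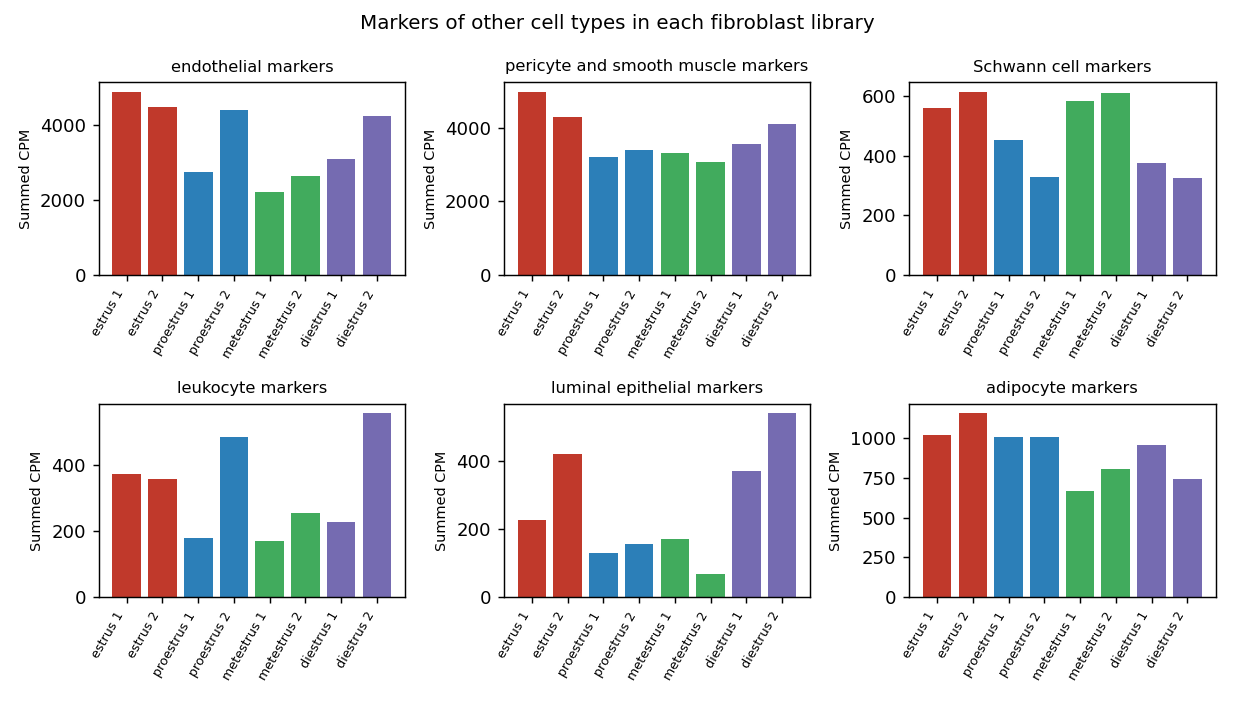
Summed CPM of markers of 6 other cell types (y axis, from 0) in each fibroblast library (x axis), estrus in red. Endothelial, pericyte and adipocyte sums are highest in the 2 estrus libraries, with 4903 and 4480 CPM for endothelial markers, and the other 3 lists overlap between the groups.

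Among single markers, *Vwf*, an endothelial clotting factor, had a log2 fold change of 1.13 before and 0.95 after correction, and its corrected level in proestrus 2 (479 CPM) exceeded that in estrus 2 (458 CPM). *Acta2*, smooth muscle actin, stood at 0.83 and 0.87, with 1034 and 753 CPM in estrus, against 413 to 630 in the other stages. *Emcn*, an endothelial surface protein, stood at 0.36 and 1.14. *Pnpla2*, a triglyceride lipase, stood at 0.87 and 0.60. *Csn3*, the milk protein kappa-casein, had 8.83 and 24.8 CPM in estrus, against 2.23 to 36.4 in the other stages. Its corrected levels were 25.2 and 35.1 in estrus, against 1.77 to 24.1, so that its groups overlapped before but not after the correction.

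Of 80 chromatin regulators tested, 48 were lower in estrus at an unadjusted p under 0.05 before the correction and 34 after it, with 32 genes in common and 0 higher on either scale. These are 60% and 42.5% of the list, beside 15.2% and 5.13% of all genes. The joint fit called 36 of them lower before and 23 after, all 23 in common (45% and 28.8%, beside 8.09% and 1.71% of all genes). Their median log2 fold change was -0.55 before and -0.41 after correction, beside 0.01 and 0.00133 for all genes. *Setd2*, a histone methyltransferase, had 13.2 and 32.5 CPM in estrus, against 55.7 to 122 in the other stages, and stood at -1.94 and -1.52. The median exonic length of this list was 11160 bases.

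Of 45 splicing factors and kinases, 29 were lower and 0 higher before the correction at an unadjusted p under 0.05, and 10 lower and 6 higher after it. The lower ones were 64.4% and 22.2% of the list, beside 15.2% and 5.13% of all genes, and the higher ones after correction 13.3%, beside 6.25%. Their median log2 fold change was -0.70 before and 0.02 after correction, and their median GC content was 40.9%. *Thoc2*, of the complex that couples splicing to export, stood at -2.15 and -1.09, and *Ppig*, a nuclear prolyl isomerase, at -2.17 and -1.32. The joint fit called both lower on both scales. The joint fit called 26 of the list lower before the correction and 5 after it (57.8% and 11.1%, beside 8.09% and 1.71% of all genes). It called 0 higher before and 4 after, beside 3.77% and 0.993% of all genes.

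All 8 mitochondrially encoded genes tested were lower before the correction at an unadjusted p under 0.05, and after it none passed that threshold. These are 100% and 0% of the list, beside 15.2% and 5.13% of all genes called lower at that threshold. The joint fit called 6 of them lower before and 0 after (75% and 0%, beside 8.09% and 1.71% of all genes). The median log2 fold change of the list was -1.13 before and 0.04 after correction. Its median GC content, 36.4%, was far under that of all genes. *mt-Nd5*, a subunit of complex I, had 79.8 and 171 CPM in estrus, against 271 to 581 in the other stages, and after correction 195 and 232, against 218 to 412. *mt-Atp8*, of the ATP synthase, stood at -1.32 and 0.44. Of 79 nuclear genes of oxidative phosphorylation, 1 was higher at an unadjusted p under 0.05 before the correction (1.27%, beside 5.61% of all genes) and 10 after it (12.7%, beside 6.25%), with 0 lower on either scale. Their median log2 fold change was 0.22 before and 0.17 after correction. Of the list *Atp5g3* stood at 0.30 and 1.05 and *Ndufa4* at 0.21 and 1.02.

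**Figure D5:**
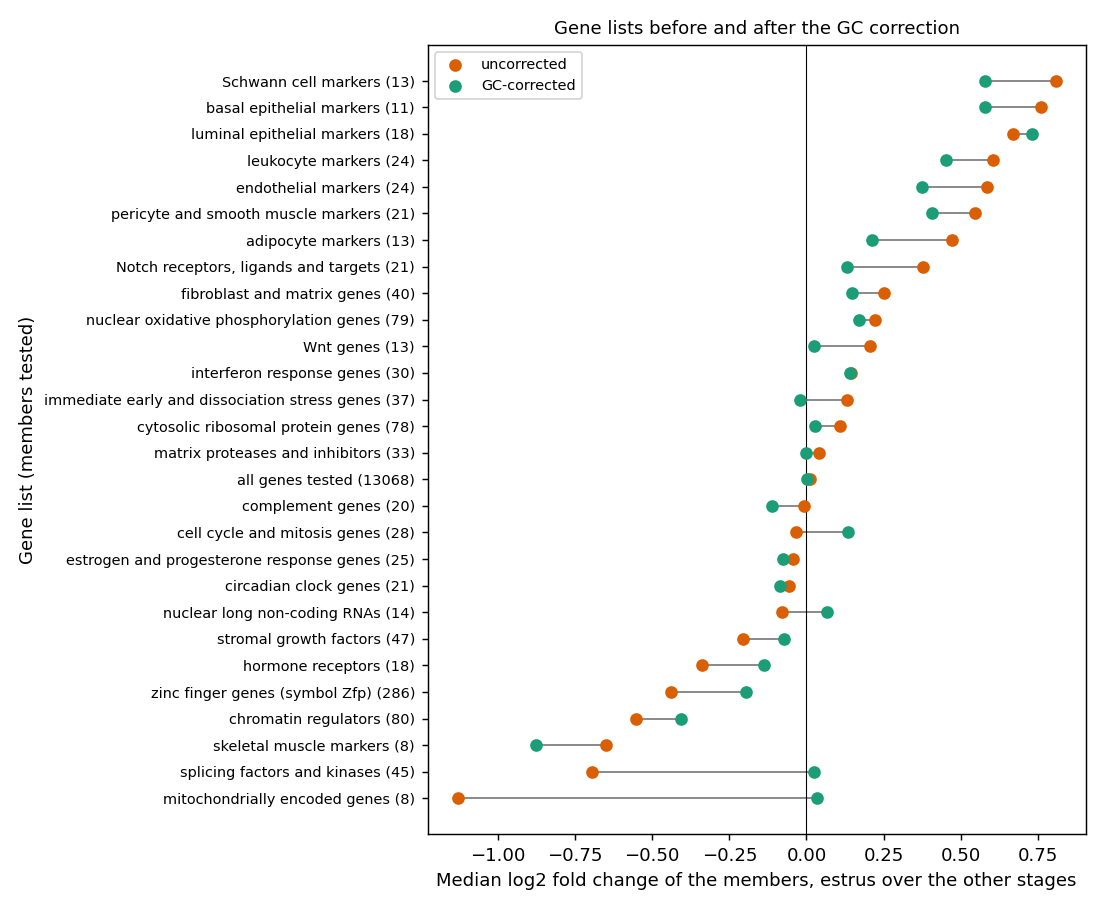
Median log2 fold change, estrus over the other stages (x axis), of the members of each gene list but the erythroid one. Lists are on the y axis with the number tested in brackets, and points are orange before the GC correction and green after it. The erythroid list, with 2 members tested and medians of 2.46 and 2.27, is not drawn. Its summed CPM was 0.396 and 36.5 in estrus, against 0.682 to 12.2 in the other stages. Mitochondrially encoded genes move from -1.13 to 0.04 and splicing factors from -0.70 to 0.02, while chromatin regulators stand at -0.55 and -0.41.

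Of 286 genes with a Zfp symbol, zinc finger proteins that mostly bind DNA, 101 were lower and 5 higher before the correction at an unadjusted p under 0.05, and 41 lower and 10 higher after it. The lower ones were 35.3% and 14.3% of the list, beside 15.2% and 5.13% of all genes. The higher ones were 1.75% and 3.5%, beside 5.61% and 6.25%. The median log2 fold change of the list was -0.44 before and -0.20 after correction. *Zfp638* had 4.88 and 13.6 CPM in estrus, against 29.3 to 61.5 in the other stages, and stood at -2.31 and -1.50. Of 14 nuclear long non-coding RNAs, 3 were lower at an unadjusted p under 0.05 before the correction and 3 after it. These are 21.4% both times, beside 15.2% and 5.13% of all genes. On the higher side were 0 and 1 (0% and 7.14%, beside 5.61% and 6.25%). The median log2 fold change of this list was -0.08 before and 0.07 after correction. *Malat1* stood at -1.89 and -1.37, and *Kcnq1ot1* at -2.08 and -1.27, the latter with overlap after the correction. The joint fit called both lower without the correction (edgeR adjusted p = 0.00818 and 0.0292) and neither with it (0.0535 and 0.257).

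The hormone receptors were mostly at low levels. *Nr3c1*, the glucocorticoid receptor, had 33.8 and 56.5 CPM in estrus, against 77.0 to 116 in the other stages, with no overlap on either scale. Its log2 fold change was -1.02 before and -0.80 after correction, and the joint edgeR adjusted p was 0.00293 and 0.0128. It was the only one of the 18 receptors tested that the joint fit called, lower on both scales. This is 5.56% of the list, beside 8.09% and 1.71% of all genes called lower. At an unadjusted p under 0.05, 5 receptors were lower before and 3 after the correction (27.8% and 16.7%, beside 15.2% and 5.13% of all genes). On the higher side were 2 and 0 (11.1% and 0%, beside 5.61% and 6.25%). *Thrb*, a thyroid hormone receptor, stood at -1.08 and -0.80, with overlapping groups. *Esr1*, the estrogen receptor, had 12.1 and 24.3 CPM in estrus, against 14.1 to 41.7 in the other stages, and a log2 fold change of -0.43 ± 0.38 before and -0.0042 ± 0.35 after correction. *Pgr*, the progesterone receptor, had 0.659 and 2.02 CPM in estrus, against 1.19 to 7.75 in the other stages, and *Prlr*, the prolactin receptor, had 0.264 and 0.454, against 0.664 to 3.30. Of 25 estrogen and progesterone response genes, 2 were higher and 2 lower before the correction at an unadjusted p under 0.05, and 0 after it. Before it these are 8% higher and 8% lower, beside 5.61% and 15.2% of all genes. After it they are 0%, beside 6.25% higher and 5.13% lower of all genes.

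Collagens and other matrix genes showed little that passed a test. Of 40 fibroblast and matrix genes, 4 were higher and 1 lower at an unadjusted p under 0.05 before the correction, and 3 higher and 1 lower after it. The higher ones were 10% and 7.5% of the list, beside 5.61% and 6.25% of all genes. The lower one was 2.5% both times, beside 15.2% and 5.13%. *Col1a1* stood at 0.65 ± 0.29 and 0.35 ± 0.30, *Col1a2* at 0.44 and 0.79, and *Col3a1*, the chain of type III collagen, at 0.51 and 0.84. *Ogn*, the proteoglycan osteoglycin, had 19.3 and 71.2 CPM in estrus, against 97.4 to 461 in the other stages, and stood at -2.15 and -1.08, with overlap after the correction. Of 33 matrix proteases and inhibitors, 2 were lower before the correction and 0 after it (6.06% and 0%, beside 15.2% and 5.13% of all genes).

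Notch receptors, ligands and targets, which pass signals between touching cells, had 9 of 21 members higher and 2 lower before the correction at an unadjusted p under 0.05, and 7 higher and 1 lower after it. The higher ones were 42.9% and 33.3% of the list, beside 5.61% and 6.25% of all genes. The lower ones were 9.52% and 4.76%, beside 15.2% and 5.13%. *Notch3*, a receptor of mural cells, had 507 and 391.7 CPM in estrus, against 203 to 304 in the other stages, and stood at 0.87 and 0.55. *Notch4*, a receptor of endothelium, stood at 1.35 and 1.02, and *Heyl*, a target of the pathway, at 0.79 and 0.54. The joint fit called 6 of the list higher before the correction and 0 after it, beside 3.77% and 0.993% of all genes. It called 2 lower before and 0 after (9.52% and 0%, beside 8.09% and 1.71%). Of 13 Wnt genes tested, secreted signals between stroma and epithelium, 3 were higher before the correction (23.1%, beside 5.61% of all genes). After it 1 was higher (7.69%, beside 6.25%). That gene, *Wnt5b*, had 6.72 and 6.10 CPM in estrus, against 1.60 to 5.26 in the other stages, and stood at 1.01 and 0.70. After correction it had 5.50 and 5.39 CPM in estrus, against 1.68 to 5.865 in the other stages, with overlap. *Wnt4* stood at 0.93 and 0.66, and the log2 fold changes of all 13 ran from -1.40 to 1.09 before and from -0.86 to 0.77 after correction.

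Of 21 circadian clock genes, 3 were higher and 4 lower at an unadjusted p under 0.05 before the correction, and 1 higher and 4 lower after it. The lower ones were 19% of the list both times, beside 15.2% and 5.13% of all genes. The higher ones were 14.3% and 4.76%, beside 5.61% and 6.25%. *Clock*, the activator of the cycle, stood at -1.60 and -0.95, *Per3*, a repressor, at -0.98 and -1.04, and *Rora*, a nuclear receptor, at -1.38 and -0.88. Of 30 interferon response genes, 2 were higher and 4 lower before the correction, and 4 higher and 2 lower after it. Before the correction these shares were near those of all genes (6.67% higher and 13.3% lower, beside 5.61% and 15.2%). After it they were 13.3% and 6.67%, beside 6.25% and 5.13%. *Ifit3*, an antiviral protein, had 12.9 and 6.25 CPM in estrus, against 0.920 to 5.88 in the other stages, and stood at 1.27 and 1.40. *Ifit1* stood at 0.64 and 1.21, and *Parp14* at -1.19 and -0.95. *Hsp90aa1*, a heat shock chaperone in the list of dissociation stress genes, stood at -1.39 and -1.14. Of the 37 genes of that list, 4 were higher and 2 lower before the correction, and 0 higher and 1 lower after it. The higher ones were 10.8% and 0%, beside 5.61% and 6.25% of all genes, and the lower ones 5.41% and 2.7%, beside 15.2% and 5.13%. The median log2 fold change of the list was 0.13 and -0.02.

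The estrus difference of fibroblasts was then set against the mean estrus difference of luminal cells, basal cells and adipocytes, by an interaction contrast in the joint edgeR fit. It called 475 of 15077 genes (3.15%), 152 with a higher and 323 with a lower difference in fibroblasts. With GC offsets it called 9 of 15003 (0.06%), 5 higher and 4 lower. The uncorrected count was 2 without estrus 1, 1617 without estrus 2, 131 without proestrus 1 and 0 without metestrus 2. *Trmt61b*, *Dcbld1* and *Bpnt1* passed with and without the GC offsets. *Bpnt1*, named after its values were seen, differed by 0.73 without the offsets (adjusted p = 0.0242) and by 0.86 with them (adjusted p = 0.0365). *Trmt61b* differed by 1.17 without the offsets (adjusted p = 0.0242) and by 1.80 with them (adjusted p = 0.018), and *Dcbld1* by 1.26 (0.0242) and 1.45 (0.0266). The difference of *Vps13a* was -2.16 without the offsets (adjusted p = 0.0242) and -1.54 with them (adjusted p = 0.0769).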

How the data were processed

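RNA of sorted cells, and of adipocytes separated by centrifugation, was sequenced with polyA selection. According to the labels and the study's methods, the authors aligned reads to GRCm38 with TopHat2 2.1 and Bowtie 1.1.0, and deposited raw read counts per gene made with HTSeq. The adult table was used, and the pubertal table and other files were not used here. Reads of long or low-GC transcripts can be lost or gained in library preparation, which raw counts keep.

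Counts were tested with edgeR 4.0.16 in R 4.3.3: genes above 1 CPM in at least 2 of 8 libraries, TMM scaling, 4 stage groups, and a contrast of estrus against the averaged proestrus, metestrus and diestrus, with Benjamini-Hochberg adjusted p under 0.05. CPM values in the text are TMM-scaled. For the GC correction, each library's deviation of log2 CPM (prior count 2) from the gene's mean was fitted by a natural spline with 5 degrees of freedom on the GC content of the merged exons of GENCODE M21, and the fit entered as an offset. Because the correction is fitted on the compared libraries, it also removes any true difference that follows GC content. GC content was found for 24726 of 25044 IDs. DESeq2 1.42.0 was an alternative. The scripts were tested on simulated data.

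Replicates are separate pools of mice. According to the study's methods, the pools of a stage were formed by vaginal cytology and histology as early (1) or late (2). Where no clear difference was seen, cell number was the second criterion. The 2 replicates of a stage may thus differ in timing within it, and the part of this in the results was not tested. The 4 cell types of a replicate came from the same pool, so the interaction was also fitted with the pool as a block. Named genes were, in each direction, the 10 with the smallest p with the GC correction and the 6 without it, among genes reaching log2 CPM 2 whose estrus and other libraries did not overlap, leaving out predicted genes and pseudogenes. To these were added the 3 leading members of each of 28 gene lists, and *Col1a1*, *Esr1*, *Pgr*, *Prlr* and the Wnt genes, of which those at small differences are given as ranges or left out. Some genes that the rule selects are not reported here. The comparison, the lists and the rule were chosen with earlier results of these data known. Alternatives were other normalizations, filters, tools, corrections and reference stages, and leaving out each library. DESeq2 and the joint fit without 1 estrus library, and fits without *Lars2* and *Gm42418*, were added after seeing the data.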

Additional observations from a re-analysis of the deposited data

Results flagged for a closer look

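Of 21 leading genes of the 2 comparisons, 15 had an estrus difference in fibroblasts that differed from the mean of the other 3 cell types by the interaction test without GC offsets (joint edgeR fit, adjusted p under 0.05). The differences of log2 fold changes, fibroblasts minus the mean of the other cell types, were positive for *Hs3st1* (1.40), *Atp1b2* (1.38), *Dcbld1* (1.26), *Trmt61b* (1.17) and *Rusc1* (0.90). They were negative for *Pcm1* (-2.44), *Atrx* (-2.40), *Tpr* (-2.34), *Vps13a* (-2.16), *Akap9* (-2.14), *Rif1* (-2.13), *Nipbl* (-2.05), *Nol8* (-1.68), *Dmxl1* (-1.62) and *Chm* (-1.34). These genes were picked for their difference in fibroblasts, so the contrast is no independent evidence. With GC offsets only *Trmt61b* and *Dcbld1* of the 15 passed. Among 45 library measures and genes, no single library of the other 3 stages stood apart from the remaining 5 by Dixon's test, which by chance marks about 1 group in 20.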

How the results depend on the processing

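The count of called genes, 0 with and without the GC correction, was 1210 and 279 with DESeq2, 1558 and 590 without a filter on low counts, and 1787 and 406 in the joint fit of 32 adult libraries. Leaving out 1 library from the separate fit gave 0 to 911 calls uncorrected and 0 to 75 corrected. Leaving out 1 estrus library gave 180 and 1669 calls uncorrected and 23 and 631 corrected with DESeq2, and 0 and 2437 uncorrected and 0 and 996 corrected in the joint fit, without estrus 1 and estrus 2 in that order. All other alternatives gave 0. The interaction count of 475 was 9 with GC offsets, 7 with GC offsets and the pool of mice as a block, 576 with the pool block alone, and 0 to 1617 when 1 library was left out. Within fibroblasts, the difference of replicate 2 from replicate 1 across genes was correlated between stages, with values from -0.164 to 0.449 over the 6 pairs. The highest value was that of proestrus with diestrus. With a replicate block the count was still 0 on both scales. Whether the replicate numbers pair the stages was not tested further. Fits without 1 of the 2 estrus libraries take the lone library to vary like the other groups.

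Of 2723 values for 58 named genes under 27 alternatives, 27 changed sign. Against metestrus alone *Col1a2* was -0.15 uncorrected and *Col1a1* -0.23 corrected. Against diestrus alone *Wnt5b* was -0.090 corrected, and *Emcn* -0.11, *Csn3* -0.56 and *Esr1* 0.0057 uncorrected. Against proestrus alone *Ndufa4* was -0.13 uncorrected. Without the 2 shallowest libraries, an alternative chosen after seeing the data, the uncorrected values were -0.011 for *Ndufa4* and 0.095 for *Esr1*, and the corrected ones were -0.10 for *mt-Atp8* and 0.37 for *Esr1*. Corrected *mt-Atp8* was -0.53 without a filter, -1.27 with length offsets alone and -0.47 with GC bins. Corrected *Esr1* was 0.12 with the replicate block, 0.062 against proestrus, 0.48 against diestrus, 0.13 with GC and length offsets, 0.036 with length offsets alone and 0.040 with GC bins. Leaving out 1 library gave -0.044 to 0.58 for *Atp5g3* and -0.091 to 0.47 for *Ndufa4* uncorrected, and -0.065 to 0.85 for *mt-Atp8* and -0.38 to 0.27 for *Esr1* corrected. The causes of these changes were not tested.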
